A study of Mus musculus with 12 samples.

Results

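The Cyp4a fatty acid hydroxylases are 6 genes in these data: Cyp4a10, Cyp4a14, Cyp4a31, Cyp4a32, Cyp4a12a and Cyp4a12b. They were chosen by name from the measured diet differences of these same mice, so all their values are given as a description with no test. The counts of the 12 libraries were summed for 36047 genes, 14670 passed the filter on low counts and were tested, and all 6 Cyp4a genes were among them, each with at least 51 estimated counts in every mouse.

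Cyp4a enzymes are cytochromes P450 of the endoplasmic reticulum that add a hydroxyl group to the end of a fatty acid chain, the omega carbon. Alcohol and aldehyde dehydrogenases turn the product into a dicarboxylic acid, which is shortened in peroxisomes. In mouse liver Cyp4a10 and Cyp4a14 are known as targets of the fatty acid receptor PPARA and respond to fasting, whereas Cyp4a12a and Cyp4a12b are known for higher expression in males, under androgen and growth hormone.

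Liver RNA was sequenced from 12 adult male C57Bl/6J mice, 3 in each of 4 groups, after 7 days on the diets. RF.Ctrl mice ate a regular-fat control diet, RF.SAAR mice a regular-fat diet restricted in sulfur amino acids, HF.Ctrl mice a high-fat control diet and HF.SAAR mice a high-fat diet with the same restriction. No diet contained cysteine, and the restricted diets had less methionine, balanced with glutamic acid. The regular-fat and the high-fat diets came from different suppliers, so fat content and supplier cannot be told apart. The mice were housed singly and had no food for a short time before the livers were taken. By the study's account they were given deuterium-labeled water, as an injection and then to drink, while on the diets. The labels number no replicates, and the mice are numbered here in the order of their titles. The totals lay between 16203094 and 21230092 estimated counts per mouse.

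The tissue label was checked with marker genes, whose levels are given as CPM, the counts of a gene scaled to a common total with the TMM factors of edgeR. The 6 hepatocyte markers, among them Alb, the gene of serum albumin, summed to 79350, 93550 and 87180 CPM in RF.Ctrl replicates 1 to 3, 77160, 72300 and 71080 CPM in the RF.SAAR mice, 87700, 83340 and 72920 CPM in HF.Ctrl, and 75120, 82510 and 71440 CPM in HF.SAAR. RF.SAAR thus lay below RF.Ctrl, with all 6 markers below 0 and a median log2 fold change of −0.23, while the high-fat groups overlapped (median −0.11). The edgeR test called 0 of the 6 in any comparison (2 at an unadjusted p under 0.05 on regular fat and 1 on high fat, 0 by DESeq2), and their part in the Cyp4a differences was not tested. Cyp4a genes are also expressed in kidney, and the 5 kidney proximal tubule markers summed to at most 1.88 CPM, with Slc5a2 at 0 in every mouse and Lrp2, the most abundant, at a mean of 0.901 CPM. All 11 markers of pancreatic acinar cells, which make digestive enzymes, were found, none at 0 in every mouse, and Amy2a5 was the most abundant with a mean of 624 CPM. Their sum was 1127, 71.6 and 60.4 CPM in RF.Ctrl replicates 1 to 3, 34.3, 71.6 and 50.7 CPM in the RF.SAAR mice, 1381, 5023 and 55.6 CPM in HF.Ctrl, and 54.9, 2863 and 13820 CPM in HF.SAAR. The 5 libraries above 1000 CPM (RF.Ctrl 1, HF.Ctrl 1 and 2, HF.SAAR 2 and 3) stand apart from the rest. The edgeR test called 0 of the 11 acinar markers in any comparison, where in HF.SAAR vs. RF.SAAR all 11 had an unadjusted p under 0.05 and DESeq2 called 10. The Cyp4a values are given below with and without the 5 libraries. Summed levels were 229 to 731 CPM for 5 skeletal muscle markers, led by Acta1, and 1.74 to 19.4 CPM for 5 adipocyte markers, led by Cfd. Both maxima were in RF.SAAR replicate 3, without which the Cyp4a12a and Cyp4a12b values are also given below. With SAAR on regular fat the muscle markers had a median log2 value of 0.52, 5 of 5 above 0, and the adipocyte markers 0.86, 4 of 4 tested above 0, while on high fat the medians were −0.02 and −0.06. In these comparisons edgeR called 0 of them (0 at an unadjusted p under 0.05, 0 by DESeq2). Sums for the other liver cells were 210 to 350 CPM for 5 Kupffer cell markers, 5.25 to 15.8 CPM for 4 cholangiocyte markers, 196 to 258 CPM for 4 stellate cell markers and 149 to 181 CPM for 4 endothelial markers. Their median log2 values with SAAR on regular fat were −0.09, −0.41, −0.19 and 0.13 in this order. All 4 cholangiocyte and all 4 stellate cell markers were below 0. On high fat the medians were 0.24, −0.13, −0.25 and 0.10, with all 5 Kupffer cell markers above 0. The part of these cells in the Cyp4a differences was not tested. Lrat, which stores retinol in stellate cells, was the marker gene that the edgeR quasi-likelihood test called in a SAAR comparison, and it was lower in RF.SAAR (log2 fold change −0.86, SE 0.19, all 3 mice below the 3 RF.Ctrl mice, adjusted p = 0.0408, called in 5 of 12 fits that each left out 1 mouse). In bulk liver, fewer cells of a type and less RNA per cell cannot be told apart.

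The 6 genes lie together on chromosome 4 of GRCm38 within 323 kb. The annotation has 13 genes in this span, and the 6 Cyp4a genes were the ones that passed the low-count filter, the others being pseudogenes and Cyp4a30b, which had a mean of 0 TPM. TPM are counts per transcript length with a common total for each mouse, the scale on which levels of different genes are compared here. Cyp4a12a (ENSMUSG00000066071, chr4:115299046-115332815) and Cyp4a12b (ENSMUSG00000078597, chr4:115411624-115439034) occupy one end of the span. Cyp4a14 (ENSMUSG00000028715, chr4:115486200-115496142), the gene on the reverse strand, comes next, followed by Cyp4a10 (ENSMUSG00000066072, chr4:115518264-115533649), Cyp4a31 (ENSMUSG00000028712, chr4:115563649-115579015) and Cyp4a32 (ENSMUSG00000063929, chr4:115600969-115621602).

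The 63 bases of coding sequence around the codon of the cysteine that holds the heme iron show how alike the genes are. They were read 5′ to 3′ along the coding strand of GRCm38 with the GENCODE exons, join exons 11 and 12 in each gene, and have in capitals the 9 positions that are not identical in all 6.
Cyp4a10 (chr4:115529493-115532567): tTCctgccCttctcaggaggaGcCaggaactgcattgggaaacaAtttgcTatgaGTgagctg
Cyp4a31 (chr4:115574941-115577972): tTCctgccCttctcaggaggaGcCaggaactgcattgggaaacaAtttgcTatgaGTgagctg
Cyp4a32 (chr4:115614871-115621470): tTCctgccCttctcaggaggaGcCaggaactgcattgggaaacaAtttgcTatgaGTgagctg
Cyp4a14 (chr4:115487275-115489814): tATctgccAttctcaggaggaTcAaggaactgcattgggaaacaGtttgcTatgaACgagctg
Cyp4a12a (chr4:115328977-115331870): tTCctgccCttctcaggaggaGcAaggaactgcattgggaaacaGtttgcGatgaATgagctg
Cyp4a12b (chr4:115435231-115438093): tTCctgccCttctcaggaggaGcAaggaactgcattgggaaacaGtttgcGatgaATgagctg

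Cyp4a10, Cyp4a31 and Cyp4a32 have the same letters here, as do Cyp4a12a and Cyp4a12b. From Cyp4a10 the window differs at 8 positions in Cyp4a14 and at 4 in Cyp4a12a. Over the whole coding sequence, identity was 97.2% between Cyp4a10 and Cyp4a32, 96.6% between Cyp4a10 and Cyp4a31, 96.0% between Cyp4a31 and Cyp4a32, and 98.5% between Cyp4a12a and Cyp4a12b, against 75.6% between Cyp4a10 and Cyp4a14 and 80.2% between Cyp4a10 and Cyp4a12a.

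This likeness limits what the counts can say about single genes, because kallisto assigns reads by runs of 31 bases and shares out reads that match several genes. Of the 31-base runs of the main transcript, 97.9% were found in no other gene for Cyp4a14, 66.3% for Cyp4a31, 54.5% for Cyp4a10, 37.8% for Cyp4a12a, 37.1% for Cyp4a12b and 34.7% for Cyp4a32. Cyp4a32 shared 51.2% of its runs with Cyp4a10, and Cyp4a12b shared 62.9% with Cyp4a12a. The split of reads among Cyp4a10, Cyp4a31 and Cyp4a32, and between Cyp4a12a and Cyp4a12b, is therefore uncertain, and Cyp4a14 is the member whose counts rest on its own sequence.

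Cyp4a14, an omega hydroxylase known for strong induction through PPARA, was at 47.4, 19.1 and 22.6 CPM in RF.Ctrl replicates 1 to 3, at 513, 1561 and 357 CPM in RF.SAAR, at 52.6, 42.8 and 90.6 CPM in HF.Ctrl and at 388, 867 and 413 CPM in HF.SAAR. Every SAAR mouse was above every control mouse at either fat level, and replicate 2 was the highest of each SAAR group. The group means were 29.7 ± 15.5, 810.5 ± 655, 62.0 ± 25.3 and 556 ± 270 CPM (SD, n = 3) in that order. Its level was 27.3 times as high in RF.SAAR as in RF.Ctrl (log2 fold change 4.77, SE 0.74), and 8.97 times as high in HF.SAAR as in HF.Ctrl (log2 3.16, SE 0.69). In either comparison this was the largest log2 value among the 6 genes with all mice included. Without RF.SAAR replicate 2 the first log2 value was 3.87.

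Cyp4a10, which hydroxylates medium-chain fatty acids such as lauric acid, was at 108, 77.7 and 50.2 CPM in RF.Ctrl, at 247, 532 and 279 CPM in RF.SAAR, at 136, 204 and 209 CPM in HF.Ctrl and at 436, 792 and 369 CPM in HF.SAAR. The SAAR mice were again all above the control mice at the same fat level, with replicate 2 highest, and here the HF.Ctrl mice were also all above the RF.Ctrl mice. Means were 78.6 ± 28.9 CPM in RF.Ctrl, 353 ± 157 CPM in the RF.SAAR mice, 183 ± 41.0 CPM in HF.Ctrl and 532 ± 227 CPM in HF.SAAR (SD, n = 3). The level was 4.49 times as high with SAAR on regular fat (log2 2.17, SE 0.42) and 2.91 times as high on high fat (log2 1.54, SE 0.41).

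Cyp4a31 is a less studied neighbour of Cyp4a10, and it had the lowest levels of the family in control mice. It was at 7.95, 5.06 and 3.10 CPM in RF.Ctrl, at 33.6, 47.2 and 48.4 CPM in RF.SAAR, at 5.87, 10.5 and 5.97 CPM in HF.Ctrl and at 47.2, 43.4 and 30.4 CPM in HF.SAAR. SAAR and control mice did not overlap at either fat level, and unlike for Cyp4a14 no single mouse stood far above its group. The level was 7.99 times as high with SAAR on regular fat (log2 3.0, SE 0.34) and 5.39 times as high on high fat (log2 2.43, SE 0.33). Its counts were divided over 4 annotated transcripts. The one taken as the main transcript held 42.8% over all mice, and another held more in RF.Ctrl (47.8 against 32.2%) and RF.SAAR (43.1 against 42.4%).

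Cyp4a32, the member with the smallest share of runs of its own, was at 32.9, 28.0 and 24.4 CPM in RF.Ctrl, at 46.3, 59.4 and 49.1 CPM in RF.SAAR, at 22.1, 35.8 and 26.5 CPM in HF.Ctrl and at 38.1, 37.3 and 34.4 CPM in HF.SAAR. On regular fat the SAAR mice were all higher, while on high fat HF.Ctrl replicate 2 lay within the range of the HF.SAAR mice. In TPM the high-fat groups did not overlap, with HF.Ctrl at most at 29.7 and HF.SAAR at least at 40.4 TPM. The level was 1.81 times as high with SAAR on regular fat (log2 0.86, SE 0.16) and 1.3 times as high on high fat (log2 0.38, SE 0.16). The second value was 0.23 without HF.Ctrl replicate 1 and 0.59 without HF.Ctrl replicate 2. When the counts of Cyp4a10, Cyp4a31 and Cyp4a32 were summed and fitted as a single gene, the sum had a log2 fold change of 1.99 on regular fat and 1.48 on high fat.

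Cyp4a12a, the male-type member, which makes the signalling lipid 20-HETE from arachidonic acid, was at 200.4, 198 and 147 CPM in RF.Ctrl, at 53.7, 104 and 146 CPM in RF.SAAR, at 176, 210.0 and 169 CPM in HF.Ctrl and at 68.4, 45.1 and 93.6 CPM in HF.SAAR. The order was the reverse of that of Cyp4a10, Cyp4a14 and Cyp4a31, with SAAR mice below control mice at either fat level. On regular fat the gap was narrow, since RF.SAAR replicate 3 lay just under RF.Ctrl replicate 3. The log2 fold change with SAAR was −0.84 (SE 0.34) on regular fat and −1.42 (SE 0.35) on high fat. The first value was −0.54 without RF.SAAR replicate 1 and −1.20 without RF.SAAR replicate 3.

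Cyp4a12b, its near-identical neighbour, was at 56.4, 52.1 and 45.0 CPM in RF.Ctrl, at 13.5, 22.3 and 38.1 CPM in RF.SAAR, at 61.4, 80.3 and 84.0 CPM in HF.Ctrl and at 20.9, 24.1 and 27.3 CPM in HF.SAAR. The SAAR mice were below the control mice of the same fat level, and RF.SAAR replicate 3 was again the highest of its group. The log2 fold change was −1.06 (SE 0.30) on regular fat, or −1.51 without that mouse, and −1.64 (SE 0.30) on high fat. In TPM, RF.SAAR replicate 3 (81.3 for Cyp4a12a and 21.5 for Cyp4a12b) lay above RF.Ctrl replicate 3 (67.8 and 21), so on that scale the regular-fat groups overlapped.

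**Figure D1:**
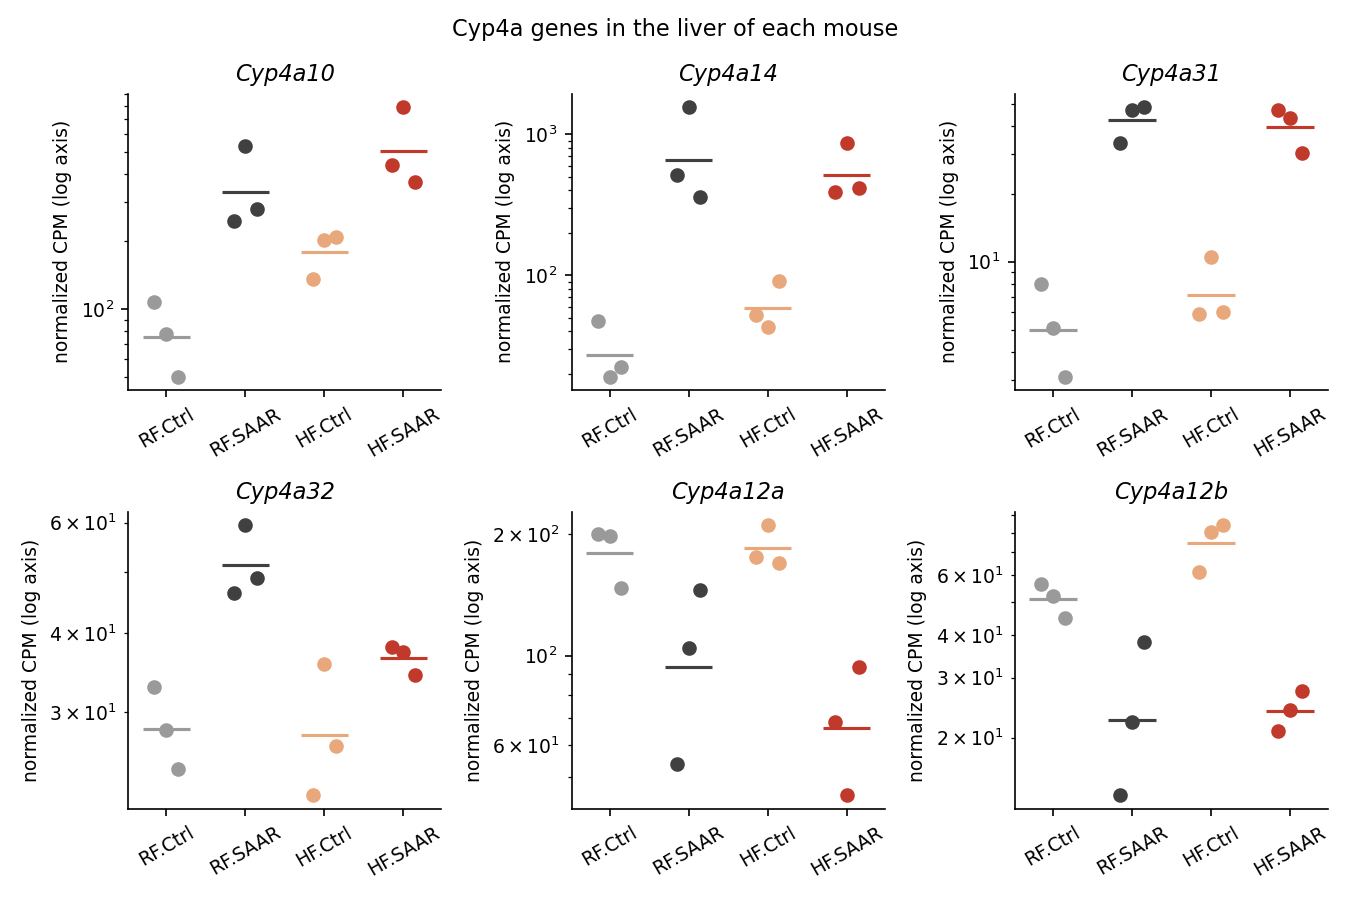
Normalized CPM of the 6 Cyp4a genes on log axes, with 1 point per mouse (replicates 1 to 3 from left to right in each group) and a line at the geometric mean. Cyp4a14 runs from 19.1 CPM in an RF.Ctrl mouse to 1561 CPM in an RF.SAAR mouse, while Cyp4a12a and Cyp4a12b are lower in the SAAR mice.

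Counted over the family, SAAR mice lay entirely above the RF.Ctrl mice for 4 of the 6 genes and entirely below for 2, and among all tested genes 8.51% lay entirely above and 9.70% entirely below. On high fat the members' counts were 3 above, 2 below and 1 overlapping, beside 8.90% and 8.96% of all tested genes. Since the members were selected on these contrasts, nothing is read from the counts. The 2 diet comparisons use different control mice, and the 4 genes with higher levels sit side by side on the chromosome while the pair with lower levels sits at the far end.

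**Figure D2:**
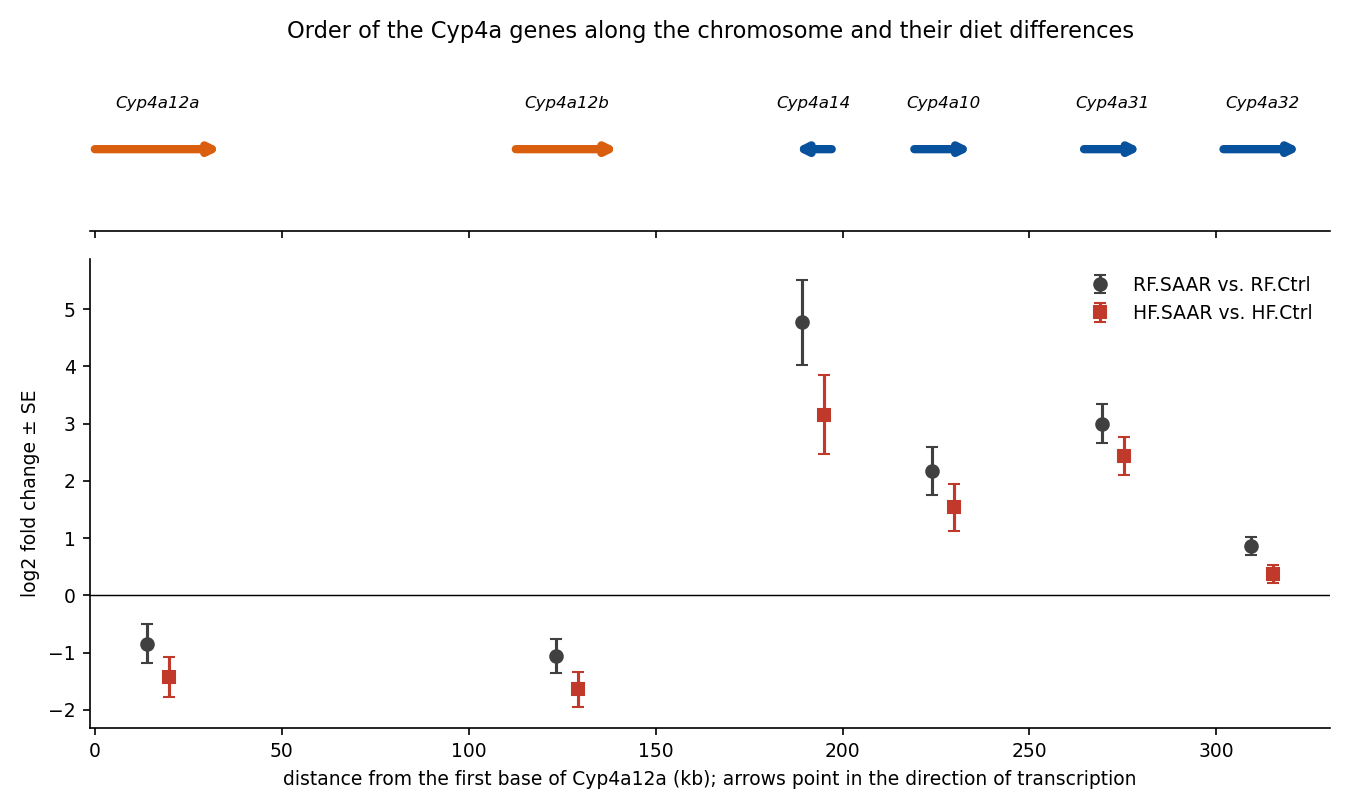
The 6 genes drawn to scale along the chromosome (kb from the first base of Cyp4a12a) above their log2 fold changes with SAAR, with bars for the SE and the points of the 2 comparisons set 6 kb apart so that both can be seen. The values run from −0.84 and −1.42 for Cyp4a12a at the left through 4.77 and 3.16 for Cyp4a14 to 0.86 and 0.38 for Cyp4a32 at the right.

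Without the 5 libraries rich in acinar transcripts, a fit chosen after seeing the data, the direction of all 6 genes stayed as it was in both diet comparisons. On regular fat, with 2 RF.Ctrl mice left, the log2 fold changes were 5.28 for Cyp4a14, 2.46 for Cyp4a10, 3.39 for Cyp4a31, 0.98 for Cyp4a32, −0.77 for Cyp4a12a and −0.98 for Cyp4a12b. On high fat 1 mouse remained on each side, each assumed to vary like the other groups, and the values were 2.08, 1.04, 2.96, 0.51, −1.33 and −2.03 in the same order. Within HF.SAAR, Cyp4a14 was at 388 CPM in replicate 1, where the acinar markers summed to 54.9 CPM, at 867 CPM in replicate 2, where they summed to 2863 CPM, and at 413 CPM in replicate 3, where they summed to 13820 CPM. What part the pancreatic transcripts have in the Cyp4a differences or in any other difference was not tested.

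As a share of the TPM of all 6 genes, Cyp4a10, Cyp4a14, Cyp4a31 and Cyp4a32 held 51.9, 43.4 and 42.3% in RF.Ctrl, 94.1, 95.2 and 83.9% in RF.SAAR, 55.1, 57.1 and 62.5% in HF.Ctrl and 92.7, 96.8 and 89.3% in HF.SAAR. The shares of these 4 genes and of the pair Cyp4a12a and Cyp4a12b were thus of similar size in control livers, and in every SAAR liver the 4 made up most of the family. The TPM of Cyp4a10, Cyp4a14, Cyp4a31 and Cyp4a32 together was 0.732 to 1.67 times that of Cyp4a12a and Cyp4a12b in the 6 control mice and 5.21 to 29.9 times in the 6 SAAR mice. The lowest of the SAAR ratios was that of RF.SAAR replicate 3, which had the highest Cyp4a12a level among SAAR mice, and the highest was that of HF.SAAR replicate 2. The whole family summed to 198 ± 39.2 TPM in RF.Ctrl, 881 ± 394 TPM in RF.SAAR, 261 ± 53.5 TPM in HF.Ctrl and 760.0 ± 192 TPM in HF.SAAR (SD, n = 3).

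**Figure D3:**
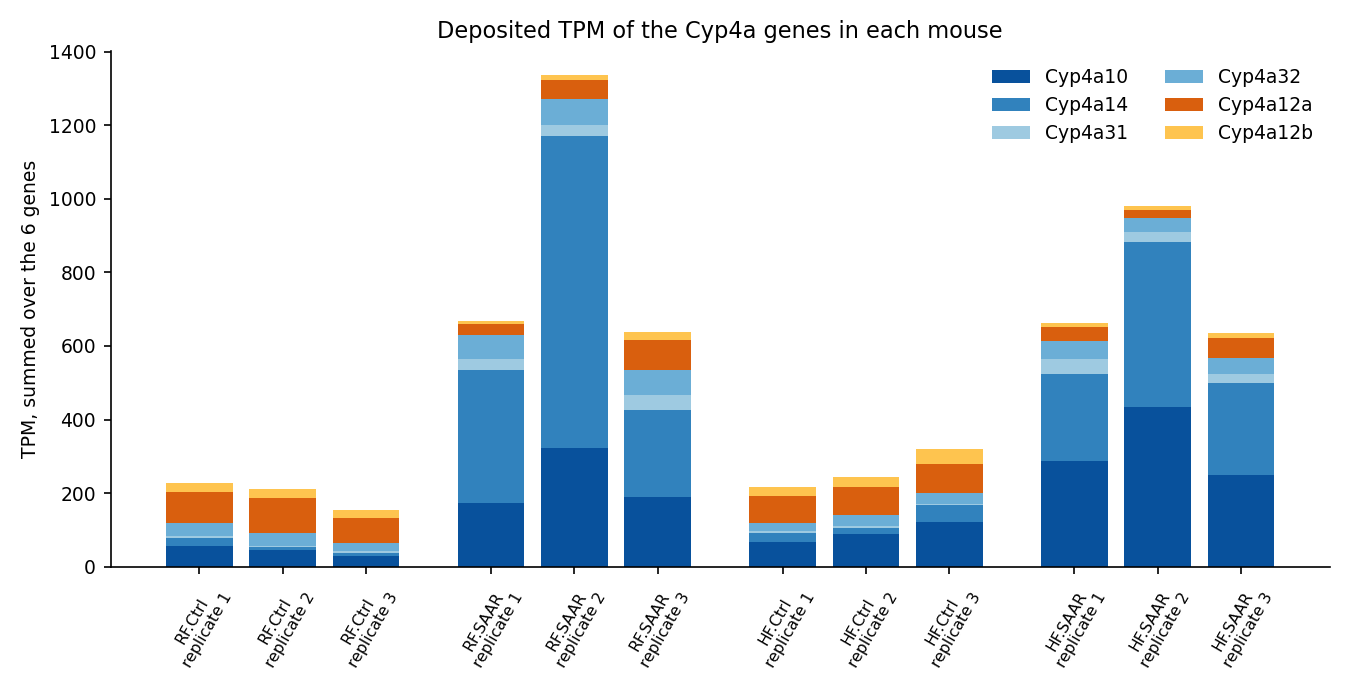
Deposited TPM of the 6 Cyp4a genes stacked for each of the 12 mice, blue for Cyp4a10, Cyp4a14, Cyp4a31 and Cyp4a32 and orange or yellow for Cyp4a12a and Cyp4a12b. The stacks reach 154 to 320.5 TPM in control mice and 637 to 1336 TPM in SAAR mice, and the blue share is 42.3 to 62.5% in the former and 83.9 to 96.8% in the latter.

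The order of the levels in TPM changed with the diet. In RF.Ctrl the mean was highest for Cyp4a12a (82.6 TPM), followed by Cyp4a10 (43.1), Cyp4a32 (31.03), Cyp4a12b (23.5), Cyp4a14 (13.9) and Cyp4a31 (3.80), and the mice of neighbouring genes overlapped except at the first and the last step. In RF.SAAR the order in TPM was Cyp4a14 (482), Cyp4a10 (229), Cyp4a32 (67.5), Cyp4a12a (55.2), Cyp4a31 (33.3) and Cyp4a12b (13.7), with gaps below Cyp4a10 and below Cyp4a31 and overlap at the other steps. Cyp4a14, near the bottom of the order in RF.Ctrl, thus had the highest mean in RF.SAAR, though it overlapped with Cyp4a10. In HF.Ctrl the means in TPM were 92.6 for Cyp4a10, 75.9 for Cyp4a12a, 31.7 for Cyp4a12b, 28.9 for Cyp4a14, 27.1 for Cyp4a32 and 4.81 for Cyp4a31, and the mice overlapped except below Cyp4a12a and below Cyp4a32. In HF.SAAR they were 324 for Cyp4a10, 311 for Cyp4a14, 44.1 for Cyp4a32, 36.8 for Cyp4a12a, 31.8 for Cyp4a31 and 12.7 for Cyp4a12b, with gaps below Cyp4a14 and below Cyp4a31. The main transcript of Cyp4a32 is annotated with 1530 bases, coding sequence alone, and those of the others with 2109 to 2509 bases, so a given count makes a higher TPM for Cyp4a32.

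The control groups differ in fat content and in the supplier of the diet. Cyp4a10 (log2 1.22, SE 0.41) and Cyp4a12b (log2 0.56, SE 0.29) were higher in every HF.Ctrl mouse than in every RF.Ctrl mouse. The sum of Cyp4a12a and Cyp4a12b, of which Cyp4a12a holds most counts, had a log2 value of 0.16, and how reads were divided within the pair was not tested. The groups overlapped for Cyp4a14 (log2 1.06, SE 0.65), Cyp4a31 (0.47, SE 0.34), Cyp4a32 (−0.01, SE 0.16) and Cyp4a12a (0.03, SE 0.34). The last value was −0.04 when scaled by library size alone. Without the acinar-rich libraries, which leaves 1 HF.Ctrl and 2 RF.Ctrl mice, the values were 1.72 for Cyp4a10, 2.13 for Cyp4a14, 0.55 for Cyp4a31, 0.02 for Cyp4a32, −0.02 for Cyp4a12a and 0.80 for Cyp4a12b. The signs for Cyp4a32 and Cyp4a12a thus changed between settings. Single mice moved Cyp4a14 to 0.68 (without HF.Ctrl replicate 3) and Cyp4a31 to 0.14 (without HF.Ctrl replicate 2), 0.20 (without RF.Ctrl replicate 3) or 0.86 (without RF.Ctrl replicate 1). Among all tested genes 8.52% had groups that did not overlap, in either direction, and nothing is read from the 2 of 6. The edgeR quasi-likelihood test called 0 of 14670 genes (0%) between the control groups, where 525 had an unadjusted p under 0.05 and DESeq2 called 31. The count of 0 was 2 without HF.SAAR replicate 1 or 2 and 1 without RF.Ctrl replicate 2 or RF.SAAR replicate 3.

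Between the SAAR groups, the HF.SAAR mice were all below the RF.SAAR mice for Cyp4a32 (log2 −0.49, SE 0.16), and the groups overlapped for Cyp4a10 (0.59, SE 0.41), Cyp4a14 (−0.54, SE 0.63), Cyp4a31 (−0.10, SE 0.30), Cyp4a12a (−0.55, SE 0.34) and Cyp4a12b (−0.03, SE 0.30). The sum of Cyp4a10, Cyp4a31 and Cyp4a32, of which Cyp4a10 holds most counts, had a log2 value of 0.44 here, and how reads were divided among the 3 was not tested. Without RF.SAAR replicate 2 the value was 0.36 for Cyp4a14 and 1.02 for Cyp4a10, and without HF.SAAR replicate 2 it was −1.02 and 0.18. Without RF.SAAR replicate 3 it was 0.43 for Cyp4a12b, −0.20 for Cyp4a12a, −0.90 for Cyp4a14 and −0.01 for Cyp4a31. Cyp4a12a also had −0.86 without RF.SAAR replicate 1, −0.84 without HF.SAAR replicate 3 and −0.33 without HF.SAAR replicate 2. For Cyp4a31 the value was 0.07 without HF.SAAR replicate 3 and 0.01 with effective-length offsets, and for Cyp4a12b it was 0.06 without HF.SAAR replicate 1. The signs for Cyp4a14, Cyp4a31 and Cyp4a12b thus changed between settings. Without the acinar-rich libraries, which leaves 1 HF.SAAR mouse, the values were 0.30 for Cyp4a10, −1.07 for Cyp4a14, 0.12 for Cyp4a31, −0.45 for Cyp4a32, −0.58 for Cyp4a12a and −0.25 for Cyp4a12b. Of all tested genes, 10.1% did not overlap and 7 (0.0477%) were called, and fits without 1 mouse called 4 without HF.Ctrl replicate 1 or 2 or RF.Ctrl replicate 2, 3 without RF.SAAR replicate 3 and 1 without HF.SAAR replicate 2 or 3.

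The effect of SAAR on high fat minus that on regular fat was below 0 for all 6 Cyp4a genes, at −0.63 (SE 0.57) for Cyp4a10, −1.61 (0.91) for Cyp4a14, −0.57 (0.46) for Cyp4a31, −0.48 (0.23) for Cyp4a32, −0.58 (0.48) for Cyp4a12a and −0.59 (0.42) for Cyp4a12b, on the log2 scale. For Cyp4a10, Cyp4a14, Cyp4a31 and Cyp4a32 the difference between SAAR and control mice was thus smaller on high fat, and for Cyp4a12a and Cyp4a12b it was larger in size. These differences between fat levels were not tested for the Cyp4a genes, and single mice moved them. Without RF.SAAR replicate 2 the value was −0.71 for Cyp4a14 and −0.20 for Cyp4a10, and without RF.SAAR replicate 3 it was −0.23 for Cyp4a12a and −0.13 for Cyp4a12b. Without HF.Ctrl replicate 2 it was −0.23 for Cyp4a31 and −0.27 for Cyp4a32. Away from 0, Cyp4a10 had −1.04 without HF.SAAR replicate 2, Cyp4a31 −0.96 without RF.Ctrl replicate 1 and Cyp4a12a −0.88 without RF.SAAR replicate 1. Without the acinar-rich libraries the value was −3.20 for Cyp4a14, −1.42 for Cyp4a10, −0.43 for Cyp4a31, −0.47 for Cyp4a32, −0.56 for Cyp4a12a and −1.05 for Cyp4a12b.

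For this difference edgeR's quasi-likelihood test called 1 of 14670 genes (0.00682%), Cyp39a1, another hepatic cytochrome P450, which hydroxylates 24-hydroxycholesterol, named after its values were seen. Its log2 fold change with SAAR was 2.33 (SE 0.10) on regular fat and 3.55 (SE 0.11) on high fat, with every SAAR mouse above every control mouse, and the difference was 1.22 (SE 0.14, adjusted p = 0.0106, edgeR quasi-likelihood test, called in 8 of 12 fits without 1 mouse). The count of 1 was 2 without RF.Ctrl replicate 1 or HF.SAAR replicate 2 and 0 without RF.Ctrl replicate 2, HF.Ctrl replicate 2, RF.SAAR replicate 3 or HF.SAAR replicate 3. By edgeR it was also 0 without the acinar-rich libraries, and with all mice 462 genes had an unadjusted p under 0.05 and DESeq2 called 16. The log2 value for SAAR was the smaller on high fat for Cyp4a14 and Cyp4a10 and the larger on high fat for Cyp39a1.

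The promoters on file cover 250 bases before and 50 after the start of a gene (RefSeq, GRCm38.p6), and they hold 1 of the 6 members, Cyp4a32. No entry: Cyp4a10, Cyp4a14, Cyp4a31, Cyp4a12a, Cyp4a12b. The sequence of Cyp4a32, on the forward strand at chr4:115600688-115600987, is shown because it is the family's only promoter here.
Cyp4a32: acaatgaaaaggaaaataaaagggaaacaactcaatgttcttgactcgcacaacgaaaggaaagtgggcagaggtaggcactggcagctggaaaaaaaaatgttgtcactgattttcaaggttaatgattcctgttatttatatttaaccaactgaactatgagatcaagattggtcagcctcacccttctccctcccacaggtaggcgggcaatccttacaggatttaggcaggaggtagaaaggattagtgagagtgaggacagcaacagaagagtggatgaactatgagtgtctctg
It holds on neither strand the direct repeat of AGGNCA with 1 base between the copies, the element type bound by PPARA with its partner RXR, nor the STAT element TTCNNNGAA, which reads the same on both strands. The former was found in 0.38% and the latter in 8.3% of the 32851 promoters. Among the 36 PPARA target genes with a promoter on file the direct repeat was found in 1, Fabp1, the liver fatty acid binding protein, shown here with the match in capitals (within chr6:71199629-71199928, forward strand, match on the reverse strand).
Fabp1: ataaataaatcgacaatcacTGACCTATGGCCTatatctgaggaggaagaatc
Fabp1, named for this match, had log2 values with SAAR of −0.45 on regular fat and −0.77 on high fat, not called by edgeR or DESeq2. Of 19 male-biased genes with a promoter on file 1 held the direct repeat, Cyp2d9. These matches are descriptions of letters in a short window.

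Around the Cyp4a genes, the test called 218 of 14670 genes (1.49%) in RF.SAAR vs. RF.Ctrl, 88 higher (0.600%) and 130 lower (0.886%). On high fat it called 289 (1.97%) in HF.SAAR vs. HF.Ctrl, 148 higher (1.01%) and 141 lower (0.961%). The first count moved by more than 1.5 times, to between 87 and 143, without RF.Ctrl replicate 1, 2 or 3, RF.SAAR replicate 1 or 3 or HF.Ctrl replicate 1. The second did so, to between 110 and 173, without HF.Ctrl replicate 1 or 3 or HF.SAAR replicate 1, 2 or 3. Without the acinar-rich libraries the counts were 81 and 6, the latter with 1 mouse in each group. Named genes called both with and without these libraries on regular fat were Lrat, Slc22a5, Cyp39a1, Adh4, C6, Hsd3b2, Selenbp2, Cyp17a1, Grpel2 and Pla2g12a. On high fat they were Cyp39a1 and Hsd3b2. Of 34 calls of named genes that were not made with these fewer mice, 33 had a log2 value within 1.5 times that with all mice, the exception being Rab30 on high fat (0.61 against 1.05).

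Cyp4a10 and Cyp4a14 are classical PPARA targets, and a list of 46 other target genes, all tested, was set beside them. On regular fat 4 of the 46 rose and 0 fell by the edgeR quasi-likelihood test, 21 had an unadjusted p under 0.05, and DESeq2 called 12 higher and 0 lower. Of all tested genes, edgeR called 0.600% higher and 0.886% lower, and 13.6% had an unadjusted p under 0.05. DESeq2 called 262 of 12321 genes higher and 329 lower. The median log2 fold change of the list was 0.24, with 37 genes above 0, against 0.00 for all tested genes, and its quartiles were 0.07 and 0.88. The 4 Cyp4a genes had 0.86 to 4.77. Crat, carnitine acetyltransferase, rose in RF.SAAR from a mean of 18.3 to 53.8 CPM (log2 1.55, SE 0.24, all 3 mice above the controls, adjusted p = 0.00787, edgeR quasi-likelihood test). It was called in all 12 fits without 1 mouse and not without the acinar-rich libraries (log2 1.81, edgeR adjusted p = 0.0666). Acot2, a mitochondrial acyl-CoA thioesterase, rose by the same test (log2 1.35, SE 0.25, all 3 mice above, edgeR adjusted p = 0.0155, called in 7 of 12 such fits), as did Ehhadh, the bifunctional enzyme of peroxisomal beta-oxidation that also acts on dicarboxylic acids (log2 0.91, SE 0.17, all 3 mice above, edgeR adjusted p = 0.0186, called in 7 of 12). The last of the 4, Slc22a5, the carnitine transporter, had a log2 value of 1.05 and is named after its values were seen.

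Several well-known targets did not pass the edgeR test, and since no test is given for Cyp4a14, they are not compared with it. Cpt1a, which lets fatty acids into mitochondria, had a log2 fold change of 0.02 (SE 0.11) on regular fat, with overlapping groups. Larger values that did not pass it either were those of Pdk4, a kinase that restrains glucose oxidation (2.07, SE 0.58, all 3 mice above the controls, called higher by DESeq2), Acot1, the cytosolic thioesterase next to Acot2 (1.59, SE 0.59), Plin2, of lipid droplets (0.64, SE 0.24), and Vnn1, a pantetheinase (0.53, SE 0.20). For Acot1 the mice were at 30.01, 104 and 75.6 CPM in RF.SAAR and at 38.7, 20.9 and 10.03 CPM in RF.Ctrl. RF.SAAR replicate 2, the highest for Cyp4a14 and Cyp4a10, was thus also the highest for Acot1, and RF.SAAR replicate 1 lay among the controls.

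On high fat the same list had 2 genes higher, 1 lower and a median log2 of 0.01, beside the 0.38 to 3.16 of the 4 Cyp4a genes. Fgf21, a fasting hormone of the liver that is also known as a target of the stress factor ATF4, rose from a mean of 1.49 to 32.3 CPM (log2 4.41, SE 0.77, all 3 mice above, edgeR quasi-likelihood adjusted p = 0.0241, called in 7 of 12 fits without 1 mouse). Its value on regular fat was 3.73 (SE 0.75, all 3 mice above), which missed the threshold by edgeR (adjusted p = 0.0533) and was called by DESeq2. Crat rose here as well (log2 1.10, SE 0.23, all 3 mice above, edgeR adjusted p = 0.0344, called in 4 of 12). In a fit with a replicate block from the order of the titles, neither was called. There Fgf21 had a log2 value of 4.32 (edgeR quasi-likelihood adjusted p = 0.0552) and Crat 1.10 (adjusted p = 0.0509). The gene that fell was Acsl1, an acyl-CoA synthetase (log2 −0.58, SE 0.11, all 3 mice below, edgeR adjusted p = 0.0153, called in 9 of 12). Ehhadh had a log2 value of 0.05 (SE 0.17), with overlapping groups. The count of 3 was 0 without HF.Ctrl replicate 1 or HF.SAAR replicate 3, 1 without HF.Ctrl replicate 2 or HF.SAAR replicate 1 or 2, 5 without RF.SAAR replicate 2, and 0 without the acinar-rich libraries. On regular fat the count of 4 was 1 without RF.Ctrl replicate 2 or 3 or RF.SAAR replicate 3, and 2 without RF.SAAR replicate 2.

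Between the control groups 0 of the 46 target genes were called by edgeR (12 with an unadjusted p under 0.05, 0 by DESeq2), with a median log2 of 0.20 and 41 genes above 0. Between the SAAR groups 0 were called (5 at an unadjusted p under 0.05, 0 by DESeq2), with a median of −0.07. The effect of SAAR on high fat minus that on regular fat had a median of −0.27, with 42 of the 46 genes below 0 and 0 called by edgeR (7 at an unadjusted p under 0.05). The same sign was found for all 6 Cyp4a genes and for the male-biased list below, with a median of −0.41 and 21 of 26 genes below 0. Among marker lists it was found for adipocytes (median −0.94, 3 of 4 genes below 0) and skeletal muscle (−0.46, 4 of 5). The opposite sign was found for Kupffer cell markers (0.37, 5 of 5 above 0), cholangiocyte markers (0.38, 3 of 4) and acinar markers (5.06, 11 of 11). Their part in these differences was not tested. All-gene medians were 0.00 to 0.01. An unadjusted p under 0.05 was found for 3.58% of all tested genes between the control groups and 5.58% between the SAAR groups. For the effect on high fat minus that on regular fat it was 3.15%.

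The receptor gene itself, Ppara, was at a mean of 68.7, 80.3, 78.4 and 86.9 CPM in RF.Ctrl, RF.SAAR, HF.Ctrl and last HF.SAAR, and its log2 fold change with SAAR was 0.23 (SE 0.21) on regular fat and 0.15 (SE 0.21) on high fat, not called. In the list of 18 receptors, cofactors and ligand-handling genes of PPARA, medians were 0.11 and 0.04, 0 genes were called on regular fat (2 at an unadjusted p under 0.05, 0 by DESeq2), and 1 rose on high fat. This was Ppargc1a, a coactivator (log2 1.18, SE 0.23, all 3 mice above, edgeR quasi-likelihood adjusted p = 0.0185, called in 9 of 12 fits without 1 mouse). Over all tested genes, 13.6% had an unadjusted p under 0.05 on regular fat, and edgeR called 1.01% higher on high fat.

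**Figure D4:**
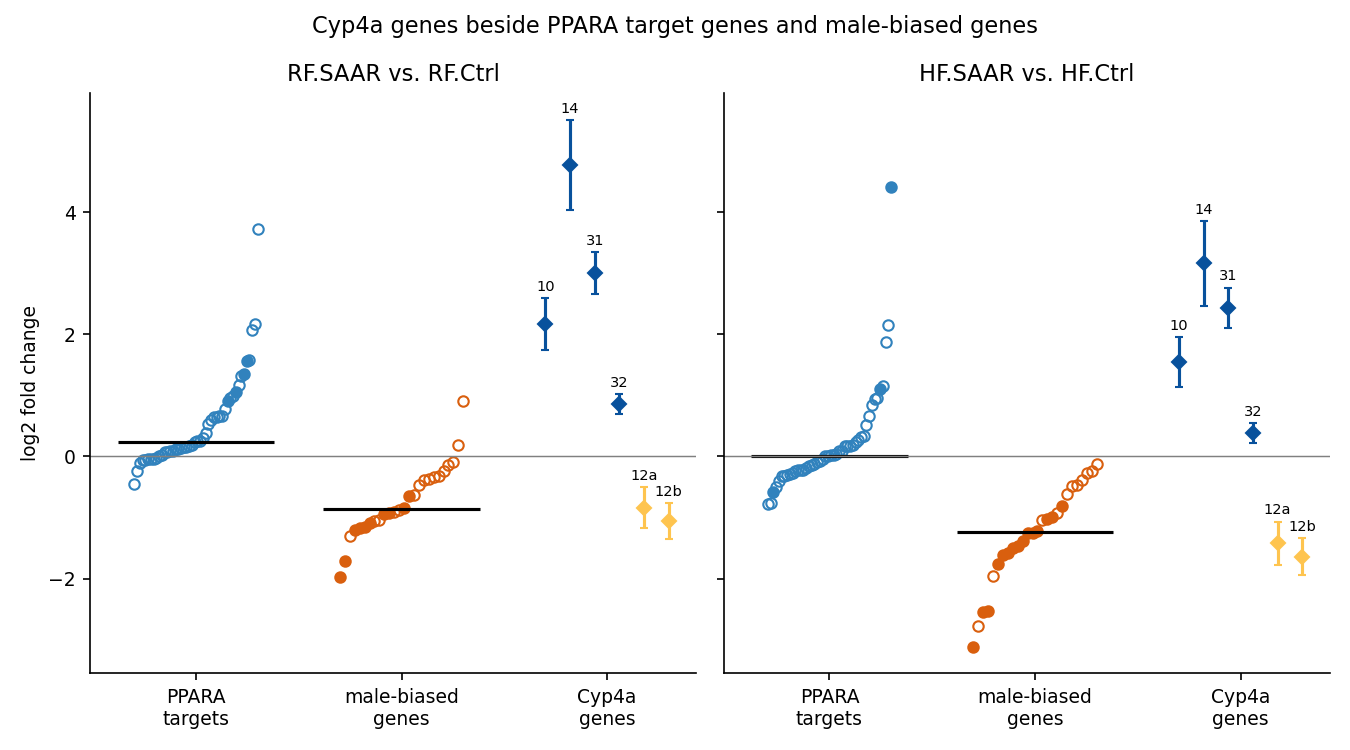
Log2 fold changes with SAAR of 46 PPARA target genes, 26 male-biased genes (filled where called by the edgeR quasi-likelihood test, line at the median) and the 6 Cyp4a genes (diamonds with SE, labelled by the end of their names). The target medians are 0.24 and 0.01 and the male-biased medians −0.86 and −1.24, and the Cyp4a genes run from −1.06 to 4.77 on regular fat and from −1.64 to 3.16 on high fat.

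A hydroxylase of this family needs electrons from a reductase, and its product needs further enzymes on the way to a dicarboxylic acid. Por, the reductase that serves the microsomal P450s, had a log2 value of 0.59 (SE 0.38) with SAAR on regular fat and 0.55 (SE 0.38) on high fat, not called. Of the 18 genes listed for this route, 1 rose on regular fat (Ehhadh, above) and 2 fell (7 with an unadjusted p under 0.05, DESeq2 2 higher and 3 lower), and on high fat 0 rose and 2 fell (8 with an unadjusted p under 0.05, DESeq2 1 higher and 4 lower), with medians of 0.01 and −0.21. Adh4, an alcohol dehydrogenase that accepts omega-hydroxy fatty acids, fell by 0.80 on regular fat (SE 0.14, all 3 mice below, edgeR quasi-likelihood adjusted p = 0.0112) and fell by 0.76 on high fat, both on the log2 scale (SE 0.14, all 3 below, adjusted p = 0.0118), called in 10 of 12 fits without 1 mouse each time. Cyb5r3, a cytochrome b5 reductase, fell on regular fat (log2 −0.40, SE 0.09, all 3 mice below, edgeR adjusted p = 0.0405, called in 3 of 12). The other gene that fell on high fat is Acsl1, given above. An unadjusted p under 0.05 by edgeR was found for 1988 of all 14670 tested genes on regular fat and 1828 on high fat. Acot4, named after its values were seen, was called higher by DESeq2 at both fat levels and by edgeR at neither.

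Of 18 other Cyp4 genes 8 were tested, and edgeR called 0 higher and 1 lower on regular fat (2 at an unadjusted p under 0.05 in either direction, DESeq2 0 higher and 2 lower) and 0 higher and 2 lower on high fat (3 at an unadjusted p under 0.05 in either direction, DESeq2 1 higher and 2 lower). Cyp4v3, an omega hydroxylase whose human counterpart is linked to an eye disease, fell in both comparisons (log2 −0.50, SE 0.09, edgeR quasi-likelihood adjusted p = 0.0139, called in 9 of 12 fits without 1 mouse; log2 −0.65, SE 0.09, adjusted p = 0.00180, called in 12 of 12; all 3 mice below each time). Cyp4f15, of the family that hydroxylates leukotrienes, fell on high fat (log2 −0.43, SE 0.10, all 3 mice below, edgeR adjusted p = 0.0346, called in 4 of 12). Cyp4f14 of the same family was not called by edgeR (−0.47, SE 0.11, and −0.24, SE 0.11, all 3 mice below each time), while DESeq2 called it lower on regular fat. For comparison, edgeR called 0.600% of all 14670 tested genes higher and 0.886% lower on regular fat. The shares on high fat were 1.01% higher and 0.961% lower. By edgeR, 1988 of the 14670 had an unadjusted p under 0.05 on regular fat and 1828 on high fat. The genes that failed the filter include Cyp4a29 and Cyp4a30b, both at a mean of 0 TPM over the 12 mice.

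Cyp4a12a and Cyp4a12b belong to the genes that male livers express more strongly, and 26 others of that kind, all tested, were set beside them. On regular fat 10 of the 26 fell and 0 rose by the edgeR quasi-likelihood test (16 at an unadjusted p under 0.05, DESeq2 13 lower and 0 higher), and the median log2 fold change was −0.86, beside −0.84 for Cyp4a12a and −1.06 for Cyp4a12b. On high fat 15 fell and 0 rose (20 at an unadjusted p under 0.05, DESeq2 19 lower and 0 higher), with a median of −1.24 beside −1.42 and −1.64 for the pair. Since the Cyp4a genes were selected on these differences, nothing is read from their place beside the lists. Over all 14670 tested genes, 1988 on regular fat and 1828 on high fat had an unadjusted p under 0.05 by edgeR. The count of 10 was 5 without RF.Ctrl replicate 1 or RF.SAAR replicate 1 and 6 without RF.SAAR replicate 2. Without the acinar-rich libraries the counts were 5 and 1, the latter with 1 mouse in each group.

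Among the male-biased genes, Hsd3b2 and Hsd3b5, both of steroid metabolism, had log2 values of −1.16 (SE 0.13, edgeR quasi-likelihood adjusted p = 0.00145) and −1.17 (SE 0.23, adjusted p = 0.0270) on regular fat, with all 3 SAAR mice below the control mice for either gene, the latter called in 8 of 12 fits without 1 mouse. On high fat they had −1.22 (SE 0.13, edgeR adjusted p = 0.000270) and −1.25 (SE 0.23, adjusted p = 0.0158), all 3 mice below, the latter called in 10 of 12. Cyp2d9, a male-specific steroid hydroxylase of the P450 superfamily, fell by 0.65 on the log2 scale on regular fat (SE 0.12, all 3 mice below, edgeR adjusted p = 0.0139, called in 11 of 12) and by 1.0 on high fat (SE 0.12, all 3 below, adjusted p = 0.000575). C6, a complement component, had log2 values of −1.09 (SE 0.14) and −1.76 (SE 0.14), and Selenbp2, a selenium binding protein, −1.98 (SE 0.27) and −3.12 (SE 0.28), both called in each comparison. Elovl3, a fatty acid elongase with strong male bias, was not called (0.19, SE 0.29, and −0.24, SE 0.29). Between the control groups 0 of the 26 were called by edgeR (2 at an unadjusted p under 0.05, 0 by DESeq2), and between the SAAR groups 0 (8 at an unadjusted p under 0.05, 4 lower by DESeq2), with medians of 0.08 and −0.26. In these comparisons 3.58% and 5.58% of all tested genes had an unadjusted p under 0.05.

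Of 23 female-biased genes 9 passed the filter, and 1 of them, Cyp17a1, a steroid hydroxylase and lyase, rose in both diet comparisons, opposite to Cyp4a12a (log2 1.91, SE 0.39, edgeR quasi-likelihood adjusted p = 0.0408, called in 3 of 12 fits without 1 mouse; log2 4.08, SE 0.43, adjusted p = 0.000908, called in 12 of 12; all 3 mice above each time). The medians were 0.41 and 0.57, and DESeq2 called 1 and 2 genes higher. In the list of 14 genes of the growth hormone, androgen and STAT5 axis, Ghr, the growth hormone receptor, fell from a mean of 514 to 324 CPM on regular fat (log2 −0.66, SE 0.10, all 3 mice below, edgeR adjusted p = 0.00481) and from 515 to 294 CPM on high fat (log2 −0.81, SE 0.10, all 3 below, adjusted p = 0.000761), called in 12 of 12 fits without 1 mouse. Without the acinar-rich libraries it was called in neither (log2 −0.67 and −0.89, edgeR adjusted p = 0.0652 and 0.242). With all mice, Ghr was the gene of that list called by edgeR in each diet comparison. The list had 5 of 14 genes at an unadjusted p under 0.05 each time and medians of −0.23 and −0.30. Among all 14670 tested genes, 1988 on regular fat and 1828 on high fat had an unadjusted p under 0.05 by edgeR. DESeq2 called 1 higher and 3 lower on regular fat and 0 higher and 4 lower on high fat.

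**Figure D5:**
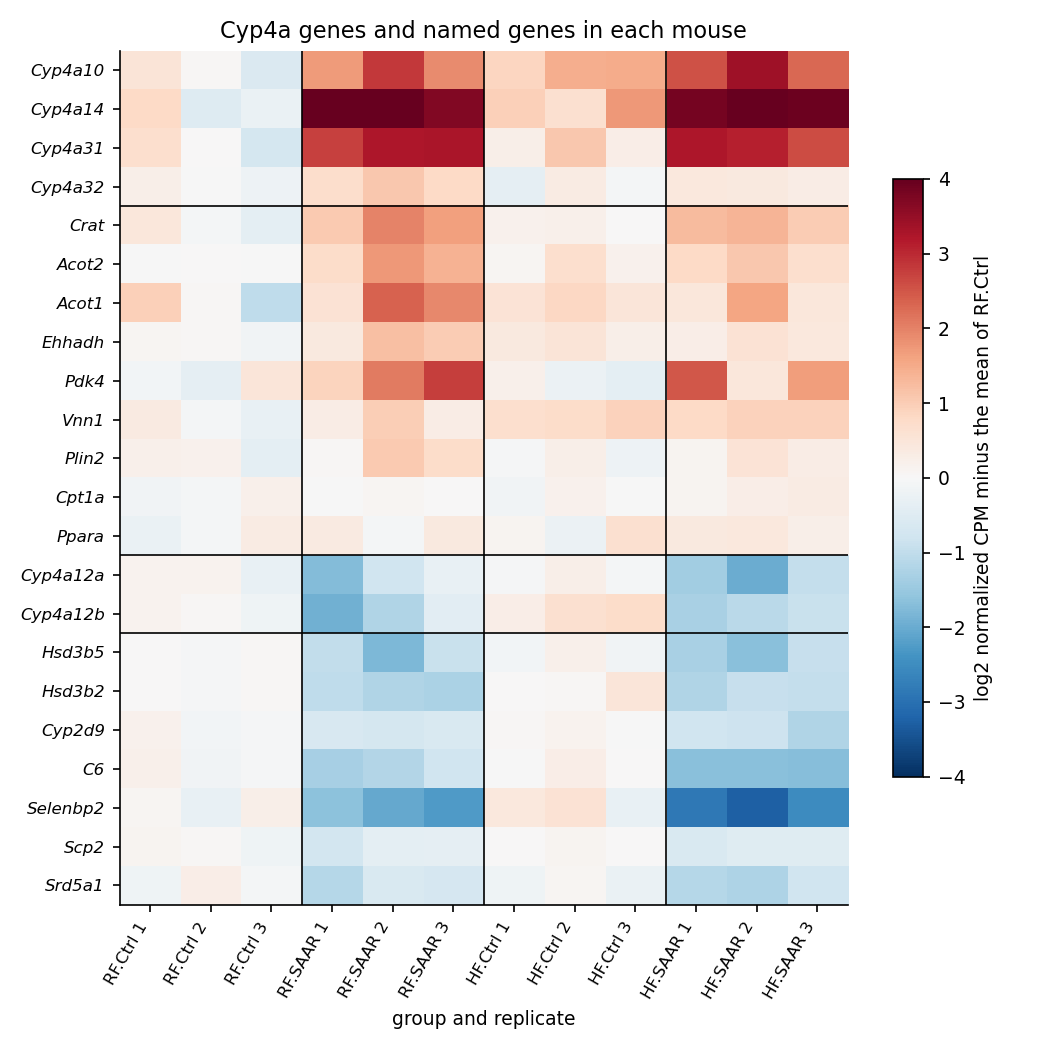
Log2 CPM of the Cyp4a genes and named genes in each of the 12 mice, minus the mean of the RF.Ctrl mice, on a scale limited to −4 and 4. The rows are, from top to bottom, the 4 Cyp4a genes with higher levels in SAAR mice, PPARA and target genes such as Crat (mean 18.3 CPM in RF.Ctrl and 53.8 CPM in RF.SAAR), Cyp4a12a and Cyp4a12b, and male-biased and similar genes such as Cyp2d9 (1386 and 883 CPM).

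The genes whose log2 CPM was most like that of Cyp4a10, Cyp4a14, Cyp4a31 and Cyp4a32 together, over the 12 mice and 9447 genes with a mean of at least 5 CPM, were Pla2g12a (Pearson r 0.943, Spearman rho 0.895), a secreted phospholipase, Rab30 (0.937, 0.909), a small GTPase, Gpat3 (0.932, 0.958), which starts glycerolipid synthesis, Crat (0.928, 0.860) and Grpel2 (0.928, 0.839), a cochaperone of mitochondrial import. These r describe 12 mice that share the 4 diet groups, and come with no test. Acot1 (r 0.745), Ehhadh (0.763) and Ppara (0.281) were less like the Cyp4a sum, and Hsd3b5 ran opposite to it (r −0.939). For the sum of Cyp4a12a and Cyp4a12b the most similar were Adh6-ps1 (r 0.949, rho 0.909), a pseudogene of an alcohol dehydrogenase, Scp2 (0.947, 0.979), a lipid transfer protein with a peroxisomal thiolase, Ugt2b38 (0.933, 0.839), a glucuronosyltransferase, Srd5a1 (0.930, 0.839), a steroid 5-alpha reductase, and Nars2 (0.924, 0.909), a mitochondrial tRNA synthetase. The r of Hsd3b5 with this pair was 0.839 and that of Cyp2d9 was 0.810.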

How the data were processed

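Reads were trimmed by cutadapt and assigned by kallisto, and the deposited estimated counts are its expected read pairs per transcript, with no scaling between mice. The deposited TPM are these counts per effective length, scaled to a common sum in each mouse, and the deposited effective lengths, in bases, served an alternative. Symbols and positions came from GENCODE for 116816 of 118489 transcripts, and counts were summed per gene and rounded. edgeR 4.0.16 in R 4.3.3 (TMM factors 0.863 to 1.11, filterByExpr by group, a coefficient per group, robust quasi-likelihood F-test, Benjamini-Hochberg over all tested genes, called under 0.05) gave the adjusted p and, by its scaling, the CPM. DESeq2 1.42.0, RLE and library-size scaling, no filter, effective-length offsets, summed paralogs, TPM and leaving out each mouse were alternatives, and leaving out the acinar-rich libraries and a replicate block were added after seeing the data. The fit was also run on simulated data, and nothing in the text is read from that run. Biopython 1.88 read the sequences.

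The members and lists were chosen with earlier results of these data known, and the lists were written from general knowledge. Named are the members and Ppara, Acot1, Ehhadh, Cpt1a, Pdk4, Vnn1, Plin2, Por, Cyp4f14, Cyp2d9, Hsd3b5 and Elovl3. Further names are, per list and comparison of groups, up to 3 genes called in each direction by smallest p, and the 5 genes with the highest Pearson r to each Cyp4a sum among tested genes with a mean of at least 5 CPM (log2 CPM, prior count 2).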

Additional observations from a re-analysis of the deposited data

Results flagged for a closer look

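Cyp39a1, a P450 outside the Cyp4a family, differed between the fat levels by the test of the difference itself. Its log2 fold change with SAAR was larger by 1.22 on high fat than on regular fat, called by edgeR in 8 of 12 fits without 1 mouse. It was not called with effective-length offsets (1.14) or without the 5 acinar-rich libraries (1.13, with 1 mouse in each high-fat group). It was at 18.2, 17.9 and 15.7 CPM in RF.Ctrl, 94.02, 87 and 79.3 CPM in the RF.SAAR mice, 12.3, 11.6 and 11.4 CPM in HF.Ctrl and 130.2, 142 and 139 CPM in HF.SAAR, with no overlap between any of the 4 groups.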

How the results depend on the processing

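With 3 mice per group, single mice and the choice of test moved many counts of called genes, and reads shared by near-identical Cyp4a genes rest on their division by kallisto. Below, the regular-fat comparison is RF.SAAR vs. RF.Ctrl and the high-fat comparison HF.SAAR vs. HF.Ctrl. The sign of the Cyp4a genes was kept in 125 of 125 alternative values in either of these and for the interaction, and in 115 of 125 for HF.Ctrl vs. RF.Ctrl and for HF.SAAR vs. RF.SAAR. When groups are compared, leaving out a mouse of a group outside the comparison barely moves the value. Cyp4a14, for example, stayed at 4.77 on regular fat without HF.Ctrl replicate 1. The members were also chosen on these differences, so nothing is read from these counts of kept signs. Library size alone moved the all-gene median log2 value by 0.16 on regular fat and 0.17 on high fat, and changes are given relative to the TMM scale, which takes this out. Leaving out libraries means fewer mice, and the cause was not tested for the other moves.

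On regular fat the 218 genes called (88 higher, 130 lower) became 425 with library size alone (359 higher, 66 lower), 591 with DESeq2, 81 without the 5 acinar-rich libraries (an alternative chosen after seeing the data) and 87 to 244 without 1 mouse. On high fat the 289 (148 higher, 141 lower) became 719 (639 higher, 80 lower), 595, 6 and 110 to 311 in the same order. For HF.Ctrl vs. RF.Ctrl the 0 called by edgeR (525 at an unadjusted p under 0.05) became 1 with library size alone, 3 without the filter, 31 with DESeq2 and 0 to 2 without 1 mouse. For HF.SAAR vs. RF.SAAR the 7 became 4, 14 and 85 in that order, 0 by edgeR without the acinar-rich libraries, and 1 to 7 without 1 mouse. For the interaction the 1 became 16 with DESeq2, 0 by edgeR with effective-length offsets or without the acinar-rich libraries, and 0 to 2 without 1 mouse.

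PPARA targets called on regular fat numbered 12 with library size alone, 12 with DESeq2 and 1 to 5 without 1 mouse, and on high fat 5, 9 and 0 to 5, with 0 by edgeR without the acinar-rich libraries. Male-biased genes called, an alternative set added after seeing the data, numbered 5 on regular fat and 1 on high fat without the acinar-rich libraries, 5 to 10 on regular fat without 1 mouse, and 4 with DESeq2 for HF.SAAR vs. RF.SAAR.

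The log2 value of Cyp4a14 was 3.87 to 5.28 without 1 mouse on regular fat and 2.08 without the acinar-rich libraries on high fat. That of Cyp4a12b was −1.51 to −0.76 without 1 mouse on regular fat. Cyp4a31 had 2.96 on high fat without the acinar-rich libraries. Summed with Cyp4a10, which has the most counts of the 3, Cyp4a31 and Cyp4a32 had 1.99 on regular fat and 1.48 on high fat. In TPM Cyp4a32 had 1.14 and 0.71. Of 45 called results of named genes, 144 of 540 values without 1 mouse, 29 of 225 in the other planned settings and 34 of 45 without the acinar-rich libraries lost the call, and 0 reversed sign with a call. Of these 34, with fewer mice, 33 had a log2 value within 1.5 times that with all mice.

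The labels give no replicate numbers, but the titles form 3 runs of 4 consecutive numbers with 1 mouse of each group, and a fit with these as a replicate block was added after seeing the data. Deviations from the group means had an r of −0.114 to 0.348 between mice of a run, over 0.1 in 13 of 18 pairs, and all 12 mice were on average most like their own run, a hint from the data and not the design. With the block, edgeR called 348 genes on regular fat, 411 on high fat, 1 for HF.Ctrl vs. RF.Ctrl, 14 for HF.SAAR vs. RF.SAAR and 1 for the interaction. Of the 45 called results of named genes 3 were not called with the block, Crat, Fgf21 and Rab30 on high fat.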
